A study of Homo sapiens with 4 samples.

Results

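Metallothioneins, the metal-responsive transcription factor MTF1 and the zinc transporters of the SLC30A and SLC39A families were followed in the human cell line AGS, established from a gastric adenocarcinoma. Genes were taken by symbol alone: MT1 genes with a letter, MT2A, MTF1, and numbered SLC30A and SLC39A genes, from probe sets annotated to exactly 1 gene. This gave 32 genes of the 19775 measured, namely 7 metallothioneins, MTF1, 10 SLC30A genes and 14 SLC39A genes. They were covered by 71 of 41091 probe sets, short oligonucleotide groups that each report on a transcript, and the brightest probe set by mean over the arrays stood for each gene. The study held 4 Affymetrix arrays: 2 of cells left for 8 h in fresh medium, and 2 of cells kept for 8 h in medium to which lipopolysaccharide (LPS) of Helicobacter pylori had been added at 10 µg/ml. LPS is a glycolipid of the bacterial outer membrane. All arrays came from this unmodified line in serum-containing medium, and the design text speaks of 2 independent experiments. The comparison asks what contact with the glycolipid does to the transcripts of stomach epithelial cells.

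Metallothioneins are small cysteine-rich proteins that bind zinc, copper and cadmium in the cytosol. MTF1 senses free zinc through its zinc fingers and switches on metallothionein genes and the exporter gene SLC30A1 by binding short metal response elements in their promoters. SLC30A proteins (ZnT) carry zinc out of the cytosol, across the plasma membrane or into organelles, and SLC39A proteins (ZIP) carry it into the cytosol. In many cell types, inflammatory signals, glucocorticoids and metals are known to raise metallothionein transcripts.

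The metallothionein genes lie next to each other on chromosome 16. In the RefSeq gene table (assembly GRCh38.p14) the measured members follow in the order MT2A, MT1E, MT1M, MT1F, MT1G, MT1H and MT1X, with pseudogenes and the unmeasured MT1A and MT1B between them. Promoter windows from RefSeq (GRCh38.p14), 250 bases before to 50 bases after a transcript start, matched 25 of the 32 genes. No window matched MT1E, MT1F, MT1G, MT1M, SLC30A8, SLC39A4 or SLC39A14. The core of the metal response element was searched in its usual forms, TGCACNC and TGCGCNC, where N is any base, on both strands. The forms differ in a fixed base and cannot match the same bases on the same strand. The 200 bases before the start are shown for the metallothioneins with a window, on whose signal the results turn, and for SLC30A1, the transporter best known as an MTF1 target. Matches are in capitals, and a match on the other strand reads as the reverse complement.
MT2A: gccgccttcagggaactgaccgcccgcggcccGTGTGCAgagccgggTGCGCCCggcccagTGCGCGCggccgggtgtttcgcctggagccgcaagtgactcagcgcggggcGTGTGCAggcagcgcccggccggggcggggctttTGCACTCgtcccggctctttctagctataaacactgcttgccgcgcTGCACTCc
MT1X: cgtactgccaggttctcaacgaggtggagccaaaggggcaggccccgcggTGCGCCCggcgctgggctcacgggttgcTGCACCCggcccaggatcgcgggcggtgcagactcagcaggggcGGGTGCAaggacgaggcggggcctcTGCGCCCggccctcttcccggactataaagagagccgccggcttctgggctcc
MT1H: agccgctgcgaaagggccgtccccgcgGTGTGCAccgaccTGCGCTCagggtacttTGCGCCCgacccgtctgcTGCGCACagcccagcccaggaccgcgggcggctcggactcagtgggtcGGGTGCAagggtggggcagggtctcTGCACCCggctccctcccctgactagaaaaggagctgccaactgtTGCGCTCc
SLC30A1: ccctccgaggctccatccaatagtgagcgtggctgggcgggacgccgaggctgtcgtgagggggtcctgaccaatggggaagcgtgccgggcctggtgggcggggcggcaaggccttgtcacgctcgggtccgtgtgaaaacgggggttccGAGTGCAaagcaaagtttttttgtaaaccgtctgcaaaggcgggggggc
They lie at chr16:56608384-56608583 (MT2A, plus strand), chr16:56682270-56682469 (MT1X, plus strand), chr16:56669614-56669813 (MT1H, plus strand) and chr1:211579162-211579361 (SLC30A1, minus strand). The stretch of MT2A holds 6 matches, that of MT1X 4, that of MT1H 7 and that of SLC30A1 1.

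Over the full 300-base windows, MT2A and MT1H each held 8 matches and MT1X held 4. Of all 35116 windows in the table, 29.6% held at least 1 match and 0.60% held 4 or more, as all 3 metallothionein windows did. The cutoff of 4 equals the lowest count among these 3, and they belong to related genes on the same stretch of chromosome 16. At least 1 match of the form TGCACNC stood in 12.1% of all windows and of TGCGCNC in 19.97%. Of the 30 windows of the 21 transporter genes, 13 held a match and none held more than 3. SLC30A2, which loads zinc into secretory vesicles, had 3 in its window. The window of MTF1 itself held 0 matches. A match says only that these letters occur there.

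**Figure D1:**
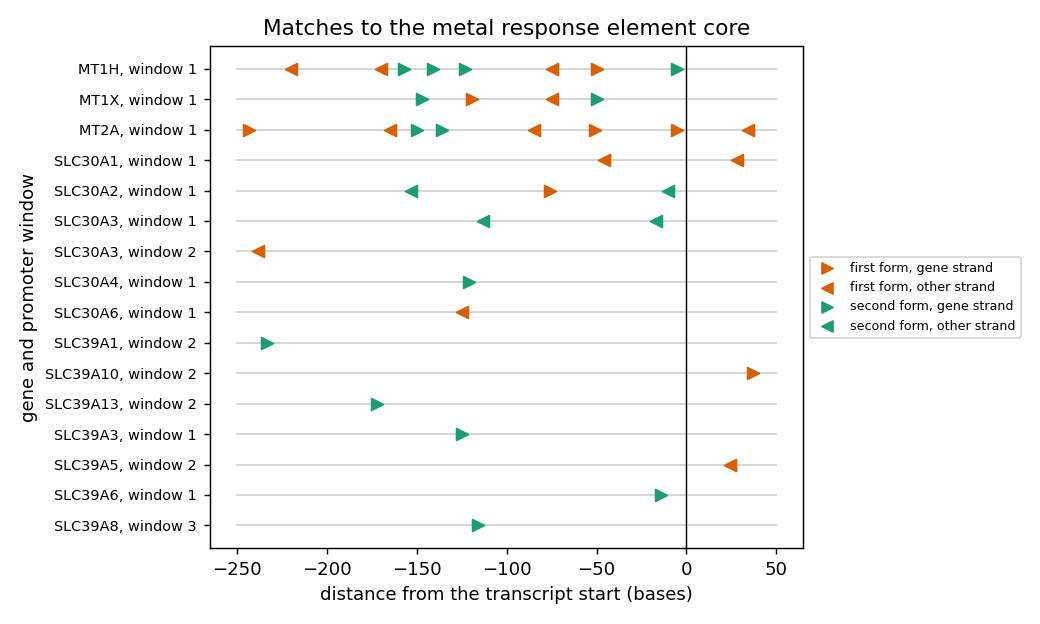
Positions of matches to TGCACNC (first form, orange) and TGCGCNC (second form, green) in every promoter window with at least 1 match, in bases from the transcript start, with arrowheads showing the strand. The rows of MT2A, MT1H and MT1X carry 8, 8 and 4 matches, and each transporter row 1 to 3.

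None of the 32 genes differed between LPS-treated and untreated cells at an adjusted p under 0.05 (limma, Benjamini-Hochberg over all 19775 genes), and neither did any other gene, so that 0% was called in either direction. Each member had an adjusted p of 1. At an unadjusted p under 0.05 there was 1 member higher, MT2A, where 1.26% of all genes were, and 0 lower, where 1.57% were. Both treated arrays lay above both untreated arrays for 8 members, against 17.9% of all genes, and below them for 3 members, against 11.7%. The 8 were MT2A, MT1X, MT1H, MT1F, MT1E, MTF1, SLC30A6 and SLC39A9, and the 3 were SLC30A4, SLC39A6 and SLC39A12. The median difference (log2, LPS minus untreated) was 0.13 over the metallothioneins, -0.005 over the SLC30A genes and 0.009 over the SLC39A genes, beside 0.02 over all genes. Above 0 lay 19 members, 6 of them metallothioneins, and below 0 lay 13, where 56.4% and 43.4% of all genes did. For 31 of the 32 members the whole 95% interval lay within 1.5-fold of no change, as it did for 95.5% of all genes, and SLC39A7 was the exception. In a culture measured as a whole, fewer cells that make a transcript and less of it per cell cannot be told apart.

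**Figure D2:**
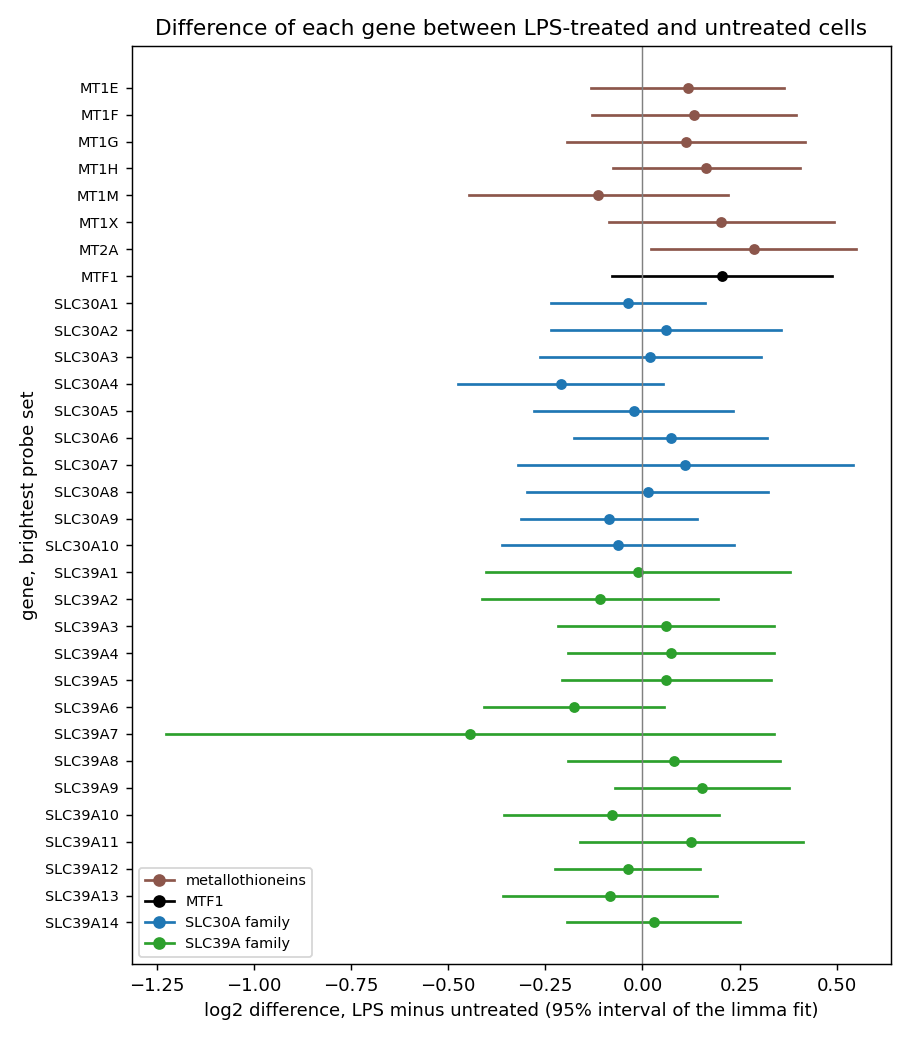
Log2 difference between LPS-treated and untreated cells for each of the 32 genes on its brightest probe set (points), with the 95% interval of the limma fit (lines). MT2A is the 1 gene whose interval (0.02 to 0.55) leaves out 0, and the interval of SLC39A7 is the widest.

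Across genes, which are not replicates, array correlations ran from 0.996 to 0.998, and differences of genes between replicate arrays had an SD of 0.17 without LPS and 0.22 with it. Controls for 18S ribosomal RNA read 10.07 (untreated) and 9.89 (LPS) in replicate 1 and 8.12 and 7.98 in replicate 2. Poly-A controls read 8.80 (untreated) and 8.27 (LPS) in replicate 1 and 7.71 and 7.59 in replicate 2. Hybridization controls read 10.33 (untreated) and 11.03 (LPS) in replicate 1 and 10.14 and 10.22 in replicate 2, so LPS replicate 1 was the highest array. Of 12 epithelial and gastric markers 9 lay above the median over genes. Among them were KRT18 (14.37 to 14.45) and EPCAM (13.43 to 13.60), which epithelia of many organs express, and the stomach genes TFF1 (12.07 to 12.27), GATA6 (10.78 to 11.06) and MUC5AC (7.63 to 8.03). The stomach genes GKN1 (4.35 to 4.61), TFF2 (5.68 to 6.17) and CLDN18 (6.83 to 7.05) lay below it. Of 5 leukocyte markers 1 lay above that median, the lysozyme gene LYZ at 9.81 to 10.10, which gastric epithelium also expresses. CD3E was at 7.04 to 7.20, PTPRC at 4.86 to 5.16 and CD14 at 4.79 to 4.95, and all 5 differences were below 0, from -0.19 to -0.02. Of 6 fibroblast and endothelial markers 1 lay above that median, COL1A1 at 8.56 to 8.69. Its probe set ends in _x_at, a kind that can match several related transcripts. The reading is above that of the epithelial CDH1 (8.15 to 8.37), but readings of different probe sets do not rank the amounts of their transcripts. In the fibroblast and endothelial list 4 differences lay above 0 and 2 below, from -0.14 to 0.08.

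MT2A, the main metallothionein isoform of many human cells, had the largest positive difference of the 32 genes. Its log2 expression was 10.72 and 10.79 in untreated cells and 10.91 and 11.17 in treated cells. The groups did not overlap, but the treated arrays lay further apart from each other than treated replicate 1 lay from untreated replicate 2. The means were 10.75 ± 0.05 and 11.04 ± 0.18 (SD, n = 2), a 1.22-fold level with a 95% interval of 1.02 to 1.46. With limma this had an unadjusted p of 0.0365 and an adjusted p of 1. Within replicate 1 the difference was 0.19, and within replicate 2 it was 0.38. Leaving out LPS replicate 1 gave 0.42 and leaving out LPS replicate 2 gave 0.16.

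MT1X, another widely expressed isoform, was at 9.93 and 10.01 in untreated cells and at 10.03 and 10.32 in treated cells. Its difference was 0.20 ± 0.12 (SE), and LPS replicate 1 lay just above untreated replicate 2. The other MT1X probe set gave 9.54 and 9.71 against 9.76 and 9.91, a difference of 0.21. Both probe sets, which can match the same related transcripts, placed treated above untreated arrays by a like amount. Leaving out LPS replicate 2 brought the difference on the brighter one to 0.06, and leaving out LPS replicate 1 brought it to 0.35.

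MT1H stood at 9.64 on both untreated arrays and at 9.75 and 9.86 on the treated ones, a difference of 0.16 ± 0.10 (SE). MT1F stood at 8.91 and 8.97 against 9.004 and 9.14, a difference of 0.13 ± 0.11 (SE), and its other probe set differed by 0.17. MT1E, at 9.28 and 9.37 against 9.42 and 9.46, differed by 0.12 ± 0.11 (SE). In these MT1 genes too the groups did not overlap, though the interval of each difference held 0. The dimmer MT1E probe set differed by 0.25, at 8.55 and 8.66 against 8.80 and 8.91. MT1G, at 8.89 and 9.10 against 8.997 and 9.22, differed by 0.11 ± 0.13 (SE), and its groups overlapped. MT1G differed by 0.001 when LPS replicate 2 was dropped and by 0.22 when LPS replicate 1 was, and MT1F by 0.06 and 0.20 in the same fits. Without untreated replicate 1 those of MT1G and MT1E were 0.006 and 0.07, and without untreated replicate 2 that of MT1G was 0.22.

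All of these values came from probe sets ending in _x_at, whose oligonucleotides can match several related transcripts. Of the 11 metallothionein probe sets 9 were of this kind, so their readings are not separate measurements of separate genes. All 9 had a difference above 0, from 0.11 to 0.29, and in 8 of them the treated arrays lay above the untreated ones, against 17.3% of all single-gene probe sets. An _x_at probe set of MT1HL1, a metallothionein-like gene outside the rule, was at 9.98 and 10.07 against 9.99 and 10.28.

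The remaining 2 metallothionein probe sets do not carry that suffix. MT1M was at 4.49 and 4.87 in untreated cells and 4.46 and 4.67 in treated cells, a difference of -0.11 ± 0.14 (SE). The second MT1G probe set was at 5.26 and 5.40 against 5.28 and 5.54, a difference of 0.08. Groups overlapped on both, and both were dim, below 7.24, the median of all genes without LPS, where background can make up much of a reading. The median of the metallothioneins was -0.02 over MT1M and MT1G when the _x_at and _s_at probe sets were left out.

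The order of the arrays was the same throughout the _x_at group. Untreated replicate 1 was the lowest and LPS replicate 2 the highest array in 9 of 9 probe sets, an order of extremes that 14.75% of all single-gene probe sets had. The median of the 9, each centred on its own mean, was -0.14 and -0.04 on the untreated arrays and 0.01 and 0.18 on the treated ones. In both groups replicate 2 lay above replicate 1 in these probe sets, and under both replicate numbers the treated array lay above the untreated one in 9 of 9, as in 30.7% of all single-gene probe sets. For the 6 genes whose brightest probe set ends in _x_at, the median step from replicate 1 to 2 was 0.07 in untreated and 0.18 in treated cells. Their treatment median was 0.15. Over all genes those steps were 0.03 and 0.05. The part of the 18S or other array differences in this was not tested.

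MTF1 was at 8.86 and 8.92 in untreated cells and 9.20 and 8.98 in treated cells on its brightest probe set, a difference of 0.20 ± 0.12 (SE) without overlap. The other probe sets gave 8.45 and 8.52 against 8.75 and 8.52, and 8.94 and 8.78 against 9.14 and 8.72, with overlap in each. The only MTF1 probe set without an _s_at suffix differed by 0.07. All 3, which read the same gene, were highest on LPS replicate 1, as were 23.7% of all single-gene probe sets. The 9 _x_at metallothionein probe sets were highest on LPS replicate 2, as were 35.4% of all single-gene probe sets. Without LPS replicate 1, MTF1 differed by 0.09.

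**Figure D3:**
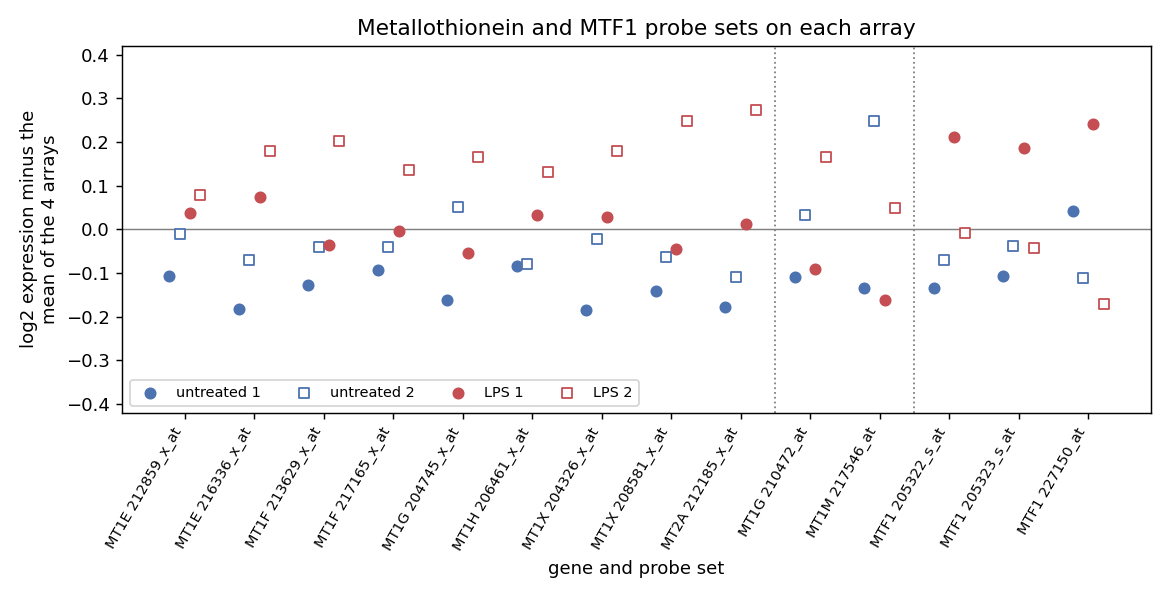
Log2 expression of each metallothionein and MTF1 probe set on each array, minus that probe set's mean over the 4 arrays (blue, untreated; red, LPS; filled circles, replicate 1; open squares, replicate 2). Dotted lines separate the 9 metallothionein probe sets ending in _x_at, the 2 others and the 3 of MTF1. LPS 2 is the highest array in all 9 of the first block, and LPS 1 in all 3 of the last.

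The SLC30A family, which moves zinc out of the cytosol, split evenly, with 5 of 10 members above 0 and 5 below, from -0.21 to 0.11. SLC30A1, the plasma membrane exporter and MTF1 target, was among the brightest members at 12.27 and 12.12 in untreated and 12.16 and 12.16 in treated cells. Its difference was -0.04, a 0.98-fold level with a 95% interval of 0.85 to 1.12, and its 3 probe sets ran from -0.09 to -0.01. The treated arrays lay between the untreated ones.

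SLC30A4, an exporter of endosomes and vesicles, was at 8.49 and 8.40 against 8.20 and 8.27, with no overlap and a difference of -0.21 ± 0.11 (SE; unadjusted p = 0.103 with limma). Its other probe sets differed by -0.20 and 0.05. Over 10 alternative settings the difference ran from -0.25 to -0.12. SLC30A6, which pairs with SLC30A5 in the early secretory pathway, was at 9.10 and 9.05 against 9.17 and 9.13, a difference of 0.07 ± 0.11 (SE). Its other probe sets ran from -0.23 to -0.03, so that the brightest probe set alone had a positive sign. SLC30A9, linked to mitochondrial zinc, was at 10.89 and 10.76 against 10.72 and 10.76, a difference of -0.09, and its groups overlapped.

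On their brightest probe sets the rest of the family overlapped between groups. SLC30A5 differed by -0.02 on its brightest probe set, while the dimmest of its 5 probe sets was at 7.92 and 7.53 against 7.48 and 6.97, a difference of -0.50 ± 0.21 (SE) without overlap. That probe set stood for the gene when _x_at and _s_at probe sets were left out, and there it had an unadjusted p under 0.05 and an adjusted p of 1 (limma). SLC30A7, a Golgi zinc transporter, was at 9.68 and 9.47 against 9.96 and 9.40, and its difference of 0.11 turned to -0.17 without LPS replicate 1. SLC30A3, known from synaptic vesicles, differed by 0.02. The dim members were SLC30A2 (0.06), SLC30A8 of insulin granules (0.01) and the manganese exporter SLC30A10 (-0.06), all below the median over genes.

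The SLC39A family, which brings zinc into the cytosol, also split evenly, with 7 of 14 members on each side of 0. SLC39A6 (LIV-1), an importer known from oestrogen-responsive breast cells, was at 10.56 and 10.44 in untreated and 10.32 and 10.33 in treated cells. The groups did not overlap, and the difference was -0.18 ± 0.10 (SE; unadjusted p = 0.115 with limma). Its other 3 probe sets differed by 0.02 to 0.17 in the opposite direction. SLC39A10, which can form a complex with SLC39A6 at the plasma membrane, was at 9.30 and 9.19 against 9.27 and 9.07, a difference of -0.08 with overlap.

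SLC39A9, located in the secretory pathway, was at 10.43 and 10.53 against 10.62 and 10.65, without overlap and with a difference of 0.15 ± 0.10 (SE; unadjusted p = 0.151 with limma). Its other probe sets did not all share that sign. They differed by 0.09, -0.25 and -0.37, and the lowest, at 6.04 and 6.00 against 5.51 and 5.79, had an unadjusted p of 0.0296 (limma over all probe sets, adjusted p = 1). Of the 71 member probe sets, 2 were under 0.05 by that unadjusted p, MT2A and this one, beside 2.68% of all probe sets. SLC39A12, a transporter of brain, was at 4.06 and 4.03 against 4.01 and 4.001, and at this level may be background.

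SLC39A7, which releases zinc from the endoplasmic reticulum and Golgi, had the largest difference of the 32 genes, and 1 array set it. Untreated cells read 8.34 and 8.30, LPS replicate 1 read 7.26 and LPS replicate 2 read 8.49. The groups overlapped, and the difference was -0.44 ± 0.34 (SE; unadjusted p = 0.225 with limma). Without LPS replicate 2 the difference was -1.06, and without LPS replicate 1 it was 0.17. Each of these fits had 1 treated array and took its spread from the untreated arrays alone. Only 1 probe set measured the gene. Just 7 of the 19775 genes, SLC39A7 included, had treated arrays as far apart as its 1.23.

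SLC39A14, an importer of zinc, manganese and iron that interleukin 6 raises in liver, was at 11.97 and 12.02 against 12.13 and 11.92. Its difference was 0.03, a 1.02-fold level with a 95% interval of 0.87 to 1.19, and the groups overlapped. SLC39A8, an importer known as an NF-kB target, was dim at 5.64 and 5.75 against 5.69 and 5.86, a difference of 0.08. Of its 6 probe sets 5 lay above 0, and the range was -0.04 to 0.17. SLC39A4, the importer of dietary zinc, was bright at 10.97 and 11.11 against 10.99 and 11.24, a 1.05-fold level with a 95% interval of 0.88 to 1.26. SLC39A1, a plasma membrane importer of most cells, differed by -0.01 and was spread over 8.15 to 8.63 within the untreated group alone. The others, all with overlap, were SLC39A11 (0.13), SLC39A5 (0.06), SLC39A3 (0.06), SLC39A13 (-0.08) and SLC39A2 (-0.11).

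**Figure D4:**
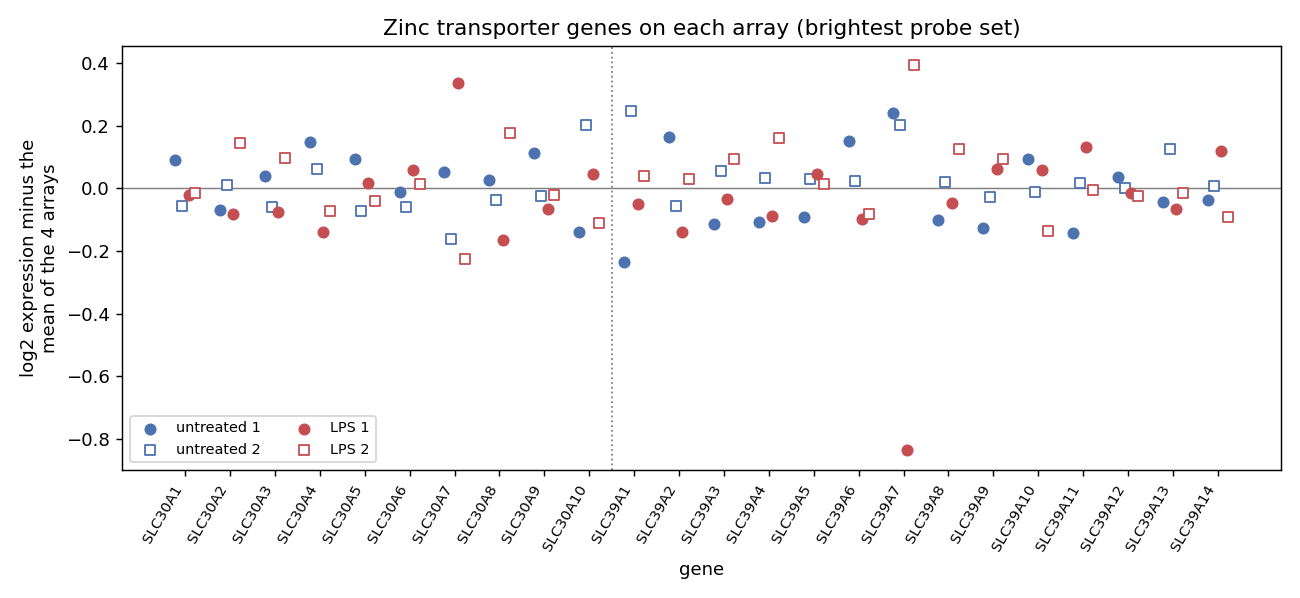
Log2 expression of the 24 zinc transporter genes on each array, minus each gene's mean over the 4 arrays (blue, untreated; red, LPS; filled circles, replicate 1; open squares, replicate 2). LPS 1 of SLC39A7 stands alone at -0.84.

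Different probe sets of one gene often disagreed. Of the 20 members with more than 1 probe set, 9 had all of them on the same side of 0 and 11 did not. The 4 metallothioneins with 2 probe sets and MTF1 with 3 were among the 9, with all of theirs above 0. For MT1E, MT1F and MT1X both probe sets end in _x_at and can match the same related transcripts. Their agreement is thus not that of separate measurements. The share of such agreement over all genes is not given here. The transporter genes SLC30A1 and SLC30A9 had all of theirs below 0, and SLC30A8 and SLC39A5 all above.

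**Figure D5:**
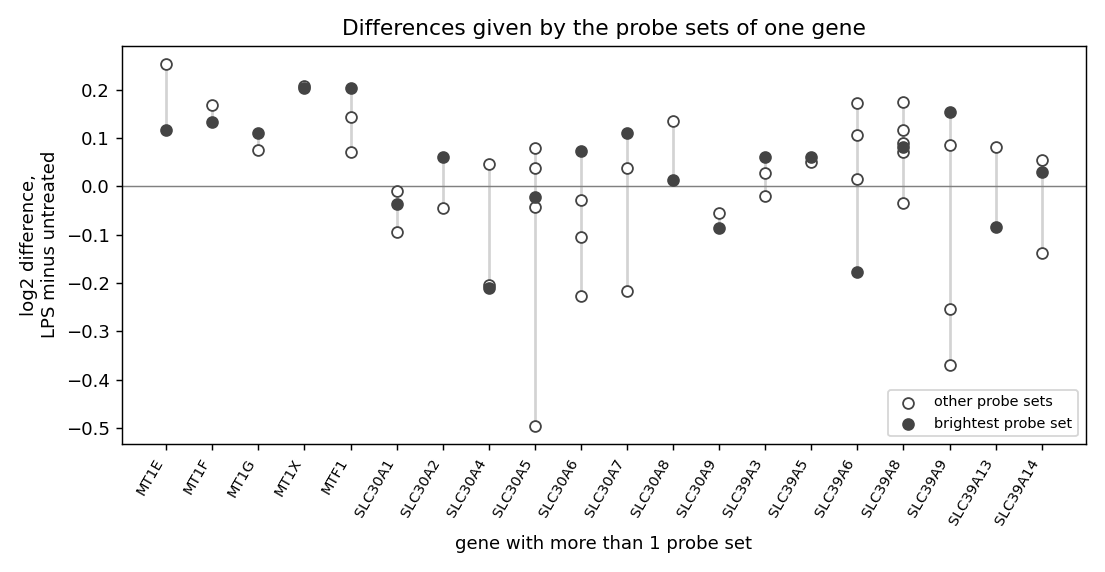
Log2 difference between LPS-treated and untreated cells on each probe set of the 20 members that have more than 1, with the brightest filled and the others open. The probe sets of SLC30A5 span -0.50 to 0.08 and those of SLC39A9 -0.37 to 0.15. Those of MT1X, both ending in _x_at and so not separate measurements, lie at 0.20 and 0.21.

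Other genes of metal handling did not pass the adjusted test either (limma, 0 genes in each list). Of 11 measured genes for zinc sensing, zinc binding and other metallothioneins, 7 lay above 0, 3 below and S100A9 at 0, with a median of 0.04 and none at an unadjusted p under 0.05. TMC6 differed by 0.16 without overlap. The zinc-accumulating vesicle protein gene TMEM163 differed by 0.18, and S100A12, which binds zinc in neutrophil secretions, by -0.07. Both TMEM163 (4.77 to 5.13) and S100A12 (4.05 to 4.31) were dim, and their groups overlapped. The related MT3 differed by 0.04 and MT4 by 0.03. The zinc receptor gene GPR39 was at 8.38 and 8.29 against 8.29 and 8.44, a difference of 0.04.

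Of 13 copper and iron genes, 8 lay above 0 and 5 below, with a median of 0.01 and none at an unadjusted p under 0.05. The copper exporter gene ATP7B had the largest difference, at 7.61 and 7.73 against 7.52 and 7.43, or -0.20 without overlap. ATOX1, its copper chaperone, differed by 0.10, SLC31A2 by -0.13 and the mitochondrial iron carrier SLC25A37 by 0.16. The ferritin light chain gene FTL (0.01) and the transferrin receptor gene TFRC (0.01) were bright and close to 0.

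Of 8 metal-inducible stress genes, 4 lay above 0 and 4 below, with a median of -0.03. SRXN1, a sulfiredoxin that repairs peroxiredoxins, was at 9.99 and 10.02 against 10.32 and 10.22, a difference of 0.27 ± 0.10 (SE; limma, unadjusted p = 0.031, adjusted p = 1). HMOX1, the haem oxygenase gene that cadmium and haem induce, was at 8.32 and 8.49 against 8.14 and 8.29, a difference of -0.19 in the opposite direction. SLC7A11, the cystine importer, differed by 0.15 and GCLM, of glutathione synthesis, by -0.11. Of 6 glucocorticoid-inducible genes, 2 lay above 0 and 4 below, with a median of -0.06 and none at an unadjusted p under 0.05. ZBTB16, dim at 5.36 to 5.76, differed by 0.22 and SGK1 by -0.09, each without overlap. KLF9 differed by -0.28, at 8.24 and 7.84 against 7.93 and 7.58, and DUSP1 by -0.17, with overlap in each.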

How the data were processed

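The authors deposited log2 expression values for 54675 probe sets on 4 arrays. MAS5 and RMA are named, with no role, in the submitters' processing notes. The values have the form of RMA output (no zeros, medians of 6.31 to 6.36), and RMA compresses differences of dim probe sets. Other settings are not given in the sources used here. Probe sets were named through the platform annotation, with symbols checked by gene number against RefSeq (GRCh38.p14). Of all probe sets 41097 had 1 symbol, 1801 several and 11777 none. Control probe sets (62) were left out.

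LPS and untreated arrays were compared over all genes with limma 3.58.1 in R 4.3.3 (lmFit, eBayes with its trend option; two-sided; no covariate; Benjamini-Hochberg; threshold 0.05). All p-values are from limma. Intervals are 95% intervals of that fit. No filter on low values was used, and the number of arrays limits the precision. An exact permutation test of 2 against 2 arrays cannot give a p under 0.33. The design text does not say which arrays belong to which of its 2 experiments, and p-values measure the spread between these arrays. The fit of LPS against untreated cells was tested on 20 simulated sets of 19775 genes, with 200 genes changed. It recovered 21.0% of 1.5-fold and 88.4% of 2-fold changes. These shares depend on how many genes change, and no smaller number is given here.

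Members, lists and tests were chosen with earlier results of these data known. Named were all members, with values per array for metallothioneins, MTF1 and transporters without overlap or with the 3 smallest p-values of their family, and up to 4 genes per other list by the moderated statistic. Further genes and values per array were chosen after their values were seen. Alternatives were a replicate block, eBayes without its trend, quantile normalization, leaving out each array in turn, a gene filter at median expression, averaging a gene's probe sets, dropping those ending in _x_at or _s_at, and testing probe sets one by one. Figures were drawn with matplotlib 3.10.9.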

Additional observations from a re-analysis of the deposited data

How the results depend on the processing

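The fit in the report has no replicate block, since the labels do not tie a replicate number to 1 experiment. The values do set same-numbered arrays together. Their deviations correlated at 0.44 across genes. The 18S controls read 10.07 and 9.89 in replicate 1 and 8.12 and 7.98 in replicate 2. Without a block this shared part counts as spread, so standard errors and intervals in the report can be wider for it. With the replicate number as a block, 0 genes and 0 members passed (limma). At an unadjusted p under 0.05 the block gave 675 higher genes (3.41%) and 812 lower (4.11%), and among members MT2A and MT1X higher and SLC39A6 and SLC30A4 lower, each with an adjusted p of 0.64. For MT2A the unadjusted p was 0.00977 with the block and 0.0365 without it (limma). Its standard error was 0.07 with the block and 0.11 without it.

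The counts of called genes and members stayed at 0 with the block, without the trend, with quantile normalization, with the gene filter, with averaged probe sets and with _x_at and _s_at probe sets dropped. When arrays were left out, 0 to 2 genes were higher, 0 to 14 lower, and 0 to 1 members lower. Those calls came without LPS replicate 2, in a fit that takes the spread of the remaining treated array from the untreated group, and the member was SLC39A7. With every probe set as its own test 0 members passed. The metallothionein median of 0.13 was -0.0187 without _x_at and _s_at probe sets, which left 2 of its genes, and 0.06 to 0.21 when arrays were left out. The transporter median of 0.001 ran from -0.0359 to 0.00484 when arrays were left out.

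Of the 32 members 12 kept their sign in every setting that measured them, among them all metallothioneins but MT1M, and MTF1, SLC30A4, SLC30A9, SLC39A5, SLC39A11 and SLC39A12. MT1E, MT1F, MT1H, MT1X and MT2A had no probe set left without the _x_at and _s_at ones. Quantile normalization turned SLC30A8 (-0.00433) and SLC39A1 (0.000264). The mean of probe sets turned SLC30A6 (-0.0719), SLC30A7 (-0.0226), SLC39A6 (0.0291), SLC39A9 (-0.0958) and SLC39A14 (-0.0184). The range over arrays left out held 0 for MT1M (-0.304 to 0.0775), SLC30A1 (-0.109 to 0.0368), SLC30A2 (-0.0521 to 0.173), SLC30A3 (-0.0653 to 0.106), SLC30A5 (-0.106 to 0.061), SLC30A7 (-0.17 to 0.392), SLC30A8 (-0.157 to 0.184), SLC30A10 (-0.233 to 0.108), SLC39A1 (-0.253 to 0.23), SLC39A2 (-0.219 to 0.00105), SLC39A3 (-0.0243 to 0.145), SLC39A4 (-0.0509 to 0.196), SLC39A7 (-1.06 to 0.171), SLC39A8 (-0.00476 to 0.168), SLC39A10 (-0.177 to 0.0191), SLC39A13 (-0.167 to 0.000576) and SLC39A14 (-0.0761 to 0.134). The cause was not tested. Dim members have signals near background, where a change in transcript can be missed.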

Other observations

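SLC39A7 was one of 4 genes that were at least 1 log2 unit lower on LPS replicate 1 than on every other array while those others lay within 0.25 of each other, a rule chosen after the values were seen. No gene was set apart in this way on any other array, or upward on LPS replicate 1. The others were CKS2, a cell cycle gene at 12.39 and 12.25 in untreated cells and 11.03 and 12.29 in treated cells, CLIC3, at 9.47 and 9.48 against 8.04 and 9.496, and DAD1, of the oligosaccharyltransferase complex, at 12.19 and 12.16 against 11.09 and 12.29. All 4 genes were measured by 1 probe set. That LPS replicate 2 lay within 0.25 of the untreated values of each gene follows from the rule itself.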
